A study of Mus musculus with 2 samples.

Results

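The microRNA (miRNA) genes Mir199a-1, Mir199a-2, Mir199b, Mir214 and Mir22, known from mesenchymal tissue, were described in limb tissue of mouse embryos at embryonic day 10.5. They were found by symbol, through the Ensembl identifiers of the count tables, and all 5 had a row among the 1973 miRNA genes measured. The material came from strain B6NCrl, male and female embryos pooled, with 69 embryos in replicate 1 and 51 in replicate 2. There was 1 group of 2 libraries and no contrast between conditions, so levels are given for each library and as mean ± SD (n = 2). No p-values are given, because the smallest two-sided exact sign-flip p that 2 libraries allow is 0.5. Whole limb was sequenced, so a level does not tell fewer cells of a type from less RNA per cell.

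A miRNA gene is transcribed as a longer RNA, from which a hairpin is excised and then cut to short mature arms, named 5p and 3p after their end of the hairpin. The mature arm guides silencing of messenger RNAs that pair with its seed, bases 2 to 8 counted from its 5′ end. Mir199a-2 and Mir214 are carried by 1 long noncoding RNA, Dnm3os, which runs opposite to the dynamin gene Dnm3 and is known for its role in skeletal growth in the mouse. The transcription factor Twist1, active in limb mesenchyme, is known to drive that RNA. Mir199a-1 and Mir199b lie opposite to the related dynamin genes Dnm2 and Dnm1, each within an intron (GENCODE M21, build GRCm38). Mir22 has a host RNA of its own, Mir22hg, and is known for roles in heart muscle.

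The mature sequences are shown first because they decide which reads can be placed at which locus. They were taken from RefSeq (build GRCm38.p6), in which all 5 hairpins and 9 mature entries of the genes were matched, with 6 different sequences. Capitals mark the seed.
miR-199a-5p, of Mir199a-1 and Mir199a-2: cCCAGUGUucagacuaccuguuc
miR-199a-3p and miR-199b-3p, of all 3 Mir199 genes: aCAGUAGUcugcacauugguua
miR-214-5p, of Mir214: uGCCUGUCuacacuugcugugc
miR-214-3p, of Mir214: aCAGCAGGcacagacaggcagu
miR-22-5p, of Mir22: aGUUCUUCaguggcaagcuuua
miR-22-3p, of Mir22: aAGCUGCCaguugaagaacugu
The 3 Mir199 genes form 1 group by the seed of the 3p arm, and Mir199a-1 and Mir199a-2 also share the seed of the 5p arm. The 2 arms of Mir214 and the 2 arms of Mir22 were each found in 1 hairpin of the 2239 annotated hairpins searched, and no second hairpin came within 2 mismatches. Only annotated hairpins were searched, not the genome. Outside these genes, the entries held 1 gene with a shared seed: Mir761, on chromosome 4 (109017655 to 109017730), shares the seed of miR-214-3p. Mir761 had no count in either library, which allows up to 0.838 sense counts per 1000000 in replicate 1 and 0.839 in replicate 2 (a limit of 3 counts).

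The 3 Mir199 hairpins are shown because they share mature sequence, with the arms that RefSeq lists in capitals.
Mir199a-1, chr9:21496495-21496564, minus strand: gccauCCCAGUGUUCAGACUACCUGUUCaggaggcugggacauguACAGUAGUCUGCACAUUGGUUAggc
Mir199a-2, chr1:162217814-162217923, plus strand: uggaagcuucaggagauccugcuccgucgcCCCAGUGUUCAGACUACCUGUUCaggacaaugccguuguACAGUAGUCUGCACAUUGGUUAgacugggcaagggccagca
Mir199b, chr2:32318460-32318569, plus strand: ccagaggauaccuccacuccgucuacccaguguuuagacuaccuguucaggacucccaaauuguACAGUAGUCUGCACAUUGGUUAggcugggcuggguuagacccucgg
The 3p arm of 22 bases was identical in all 3 hairpins. The 5p arm of 23 bases was identical in Mir199a-1 and Mir199a-2. The stretch of Mir199b at its place, bases 26 to 48 of the hairpin, differed from it by 1 substitution, C10U, counted from the 5′ end of miR-199a-5p. That position lies outside the seed, and the stretch with U was found in 1 annotated hairpin. The differing base is in capitals below.
miR-199a-5p: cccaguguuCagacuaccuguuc
Mir199b, same place: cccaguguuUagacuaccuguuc

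Mir214 had the most counts of the 5 genes and Mir199a-1 had the fewest. The layout of the counts is that of reads placed at 1 locus, and the Mir199 genes share arms. The levels and ranks of the Mir199 genes are therefore not the abundance of their miRNAs. Levels are sense-strand counts per 1000000 sense counts in miRNA genes (CPM), not divided by length, since the mature arms are all 22 or 23 bases long. Mir214 (ENSMUSG00000065516) had 59424 counts in replicate 1 and 73364 in replicate 2, or 16591 and 20513 CPM (mean 18552 ± 2773, SD, n = 2). It ranked at place 13 of the 1973 genes in each library, so both libraries gave it the same standing. Mir199b (ENSMUSG00000092807) had 4211 and 6722 counts, or 1176 and 1880 CPM (1528 ± 498, SD, n = 2), and ranked at 74 by its mean. Mir22 (ENSMUSG00000065529) had 4128 and 2431 counts, or 1153 and 680 CPM (916 ± 334, SD, n = 2), and ranked at 100. The other 2 genes, both of the Mir199 family, were lower. Mir199a-2 (ENSMUSG00000070126) had 1173 and 1462 counts, or 328 and 409 CPM (368 ± 57.5, SD, n = 2), and ranked at 135. Mir199a-1 (ENSMUSG00000065547) had 46 and 103 counts, or 12.8 and 28.8 CPM (20.8 ± 11.3, SD, n = 2), and ranked at 263.

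The values of Mir214 lay above those of the other 4 genes in both libraries, and those of Mir199a-1 lay below them. Mir199b and Mir22 could not be ordered beyond their spread: in replicate 1 their exact binomial 95% intervals overlapped (1140 to 1212 against 1118 to 1188 CPM), and only in replicate 2 was Mir199b clearly higher. Both lay above Mir199a-2 in each library. All 5 genes had at least 10 counts in both libraries, as did 17.6% of all 1973 genes. Against the median of those detected genes, 136 CPM, Mir214 was 136-fold higher, Mir199b 11.2-fold, Mir22 6.72-fold and Mir199a-2 2.70-fold, while Mir199a-1 had 0.153 of it. Together the 5 genes held 1.93% and 2.35% of all sense counts (2.14% ± 0.301, SD, n = 2). Mir214 alone made up 86.1% and 87.3% of their sum.

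**Figure D1:**
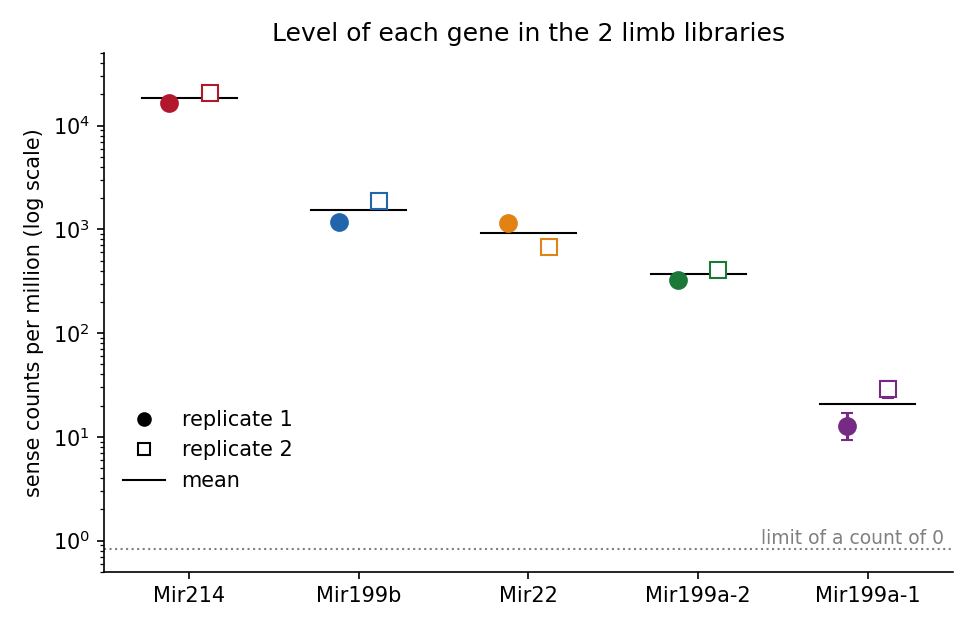
Level of each gene in CPM (log axis) in replicate 1 (filled circles) and replicate 2 (open squares), with exact binomial 95% intervals for counting error and the mean as a line. Mir214 sits between 16591 and 20513, and Mir199a-1 between 12.8 and 28.8, with all values above the dotted limit that a count of 0 allows.

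**Figure D2:**
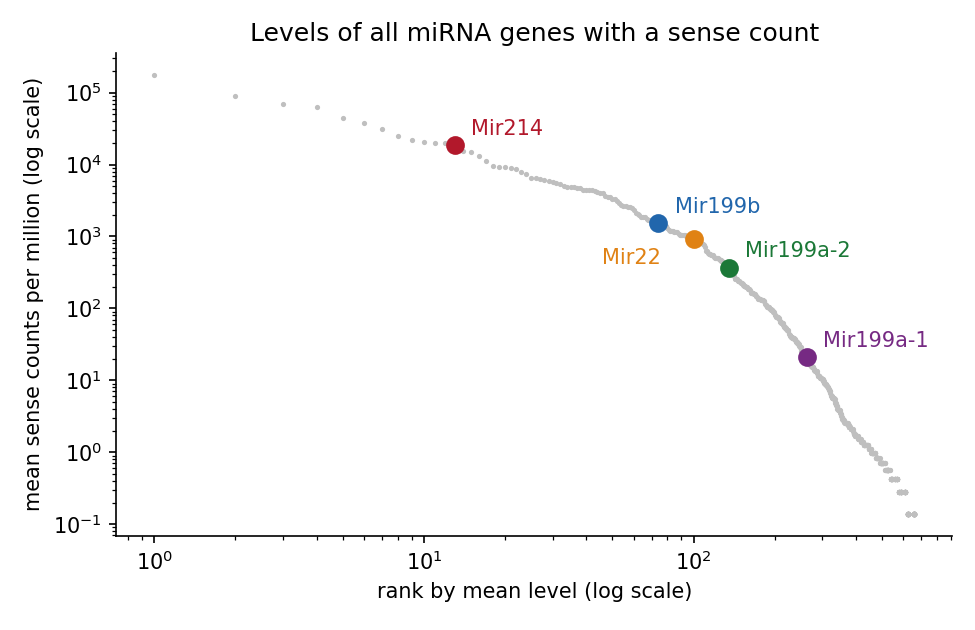
Mean level of every miRNA gene with a sense count against its rank (both axes log). The 5 genes are coloured: Mir214 stands at rank 13, Mir199b at 74, Mir22 at 100, Mir199a-2 at 135 and Mir199a-1 at 263.

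Mir214 and Mir199a-2 are carried by the same host RNA, and their counts differed about as much in one library as in the other. Dnm3os lies on chromosome 1 (162217623 to 162225550, plus strand), inside Dnm3 on the opposite strand, and both hairpins fall in introns of Dnm3. The Mir199a-2 hairpin starts 191 bases after the start of Dnm3os and the Mir214 hairpin 5745 bases after it, with 5444 bases between them. Each hairpin lies wholly within an exon in 2 of the 6 annotated Dnm3os transcripts. The Mir214 hairpin, whose arms (capitals) have no copy at Mir199a-2, reads as follows.
Mir214, chr1:162223368-162223477, plus strand: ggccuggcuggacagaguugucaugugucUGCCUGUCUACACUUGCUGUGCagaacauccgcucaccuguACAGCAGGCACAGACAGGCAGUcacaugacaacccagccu
Mir214 was 50.6-fold higher than Mir199a-2 in replicate 1, a log2 ratio of 5.66 (exact binomial 95% interval 5.58 to 5.75). In replicate 2 it was 50.1-fold higher, a log2 ratio of 5.65 (5.57 to 5.72). The ratio of replicate 2 minus that of replicate 1 was -0.013 on the log2 scale, which is smaller than the width of either interval. Both arms of Mir199a-2 also occur at other loci and those of Mir214 do not, so this is a ratio of uniquely placed reads and not of the 2 mature miRNAs.

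**Figure D3:**
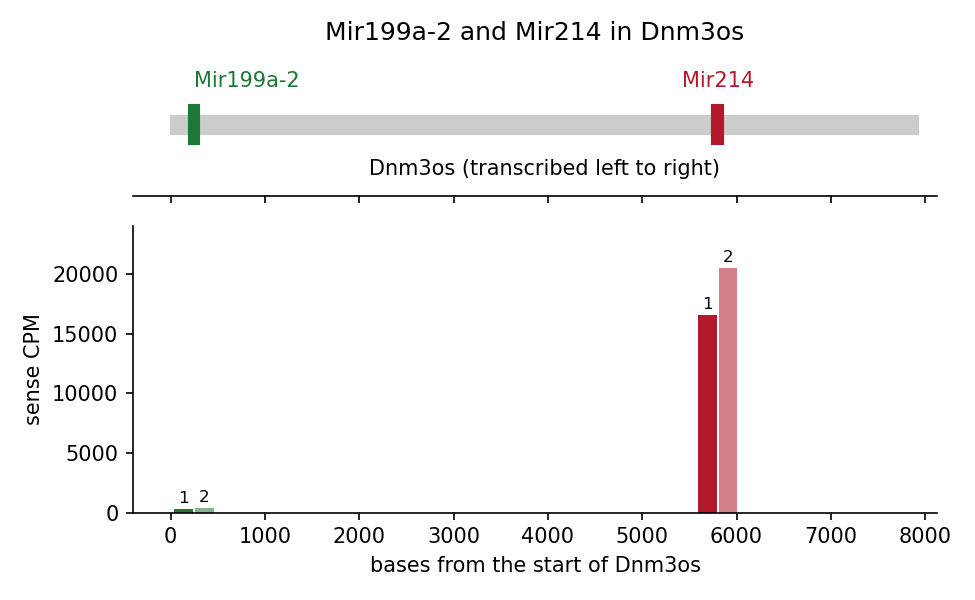
Map of Dnm3os with the hairpins of Mir199a-2 and Mir214 to scale, in bases from its start, above their levels in CPM in replicates 1 and 2 (bars, drawn wider than the hairpins and side by side). The bars of Mir214 reach 16591 and 20513 and those of Mir199a-2 reach 328 and 409.

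A ratio of over 10-fold was not rare among neighbouring miRNA genes. How common a ratio as large as that of Mir214 and Mir199a-2 was depended on which pairs were counted. Pairs on the same strand within 10 kb were over 10-fold apart in the same direction in both libraries in 64.2% of 715 pairs with at least 1 detected gene. The share was 32.9% of 350 pairs with both genes detected. In those 350 pairs, from 148 genes, the median distance was 2.41 on the log2 scale, and the quartiles were 1.16 and 4.30. The distance of Mir214 from Mir199a-2, 5.65, was reached or passed by 42 other pairs of the 350, and 87.7% of the 350 were less far apart. Of the 715 pairs, which include undetected genes, 53.7% were less far apart, and their median distance was 5.29. Within 50 kb, 47.8% of 1801 such pairs were less far apart. From library to library, the ratio changed by a median of 0.35 over the 350 pairs, and 4 other pairs of the 350 changed by less than the Mir214 pair. The change of the Mir214 pair was smaller than the width of its counting intervals. Its place among the pairs with small changes is therefore not resolved. The pairs share genes and libraries, so these places are a description with no test.

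**Figure D4:**
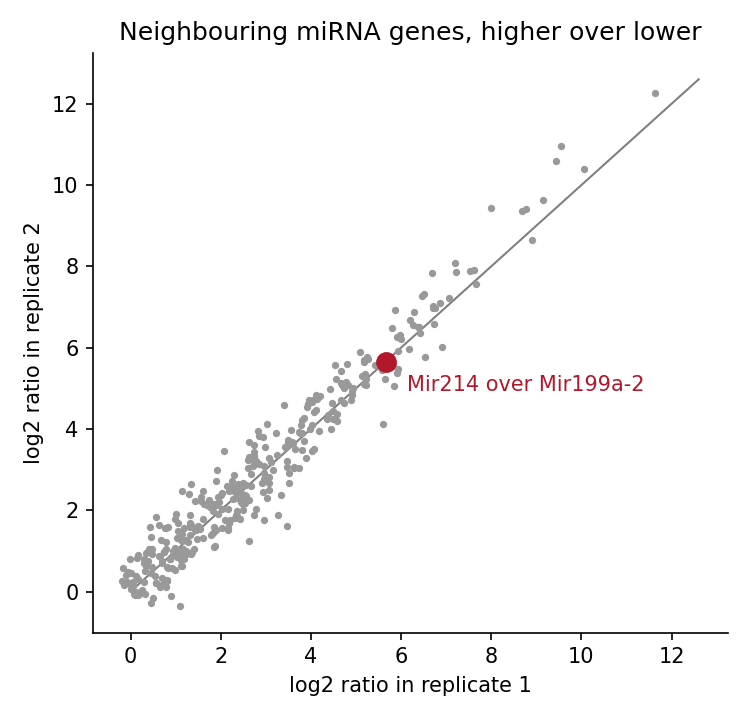
Log2 ratio of the higher to the lower gene of each neighbouring pair in replicate 1 (x axis) and replicate 2 (y axis), for the 350 pairs with both genes detected, with the line of equality. The pair of Mir214 and Mir199a-2, in red, lies on the line at 5.66 and 5.65.

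Among the 3 Mir199 genes, Mir199b took most of the uniquely placed reads and Mir199a-1 the fewest. Mir199b held 77.6% of their summed counts in replicate 1 and 81.1% in replicate 2, Mir199a-2 held 21.6% and 17.6%, and Mir199a-1 held 0.847% and 1.24%. The order was the same in both libraries. Mir199b exceeded Mir199a-2 by a log2 ratio of 1.84 (exact binomial 95% interval 1.75 to 1.94) and 2.20 (2.12 to 2.28), and their mean was 2.02 ± 0.25 (SD, n = 2). Mir199b exceeded Mir199a-1 by 6.49 and 6.01 (6.25 ± 0.33, SD, n = 2). Mir199a-2 exceeded Mir199a-1, whose arms are the same, by 4.64 (4.25 to 5.13) and 3.81 (3.54 to 4.13). The intervals of the last ratio did not overlap between the libraries, with a difference of -0.83.

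The layout of the tables is that of counting reads placed at 1 locus, and for the Mir199 genes the hairpins show how much sequence such a read must carry. Around the 5p arm, Mir199a-1 and Mir199a-2 shared no base before the arm and 4 bases after it, a run of 27 bases: CCCAGUGUUCAGACUACCUGUUCagga. A read of this arm can be told between the 2 loci only if it starts before the arm or runs more than 4 bases past it. Around the 3p arm the same pair shared 3 bases before and 1 after, a run of 26 bases: uguACAGUAGUCUGCACAUUGGUUAg. Mir199a-2 and Mir199b shared 4 bases before the 3p arm and 1 after it. Mir199a-1 and Mir199b shared 3 before and 3 after, up to the end of the Mir199a-1 hairpin. The exact 5p arm was thus found in 2 annotated hairpins and the exact 3p arm in 3, while the 5p stretch of Mir199b with C10U was found in 1. The tables do not separate arms, so which arm the counts of Mir199b came from was not measured.

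How many Mir199 reads were counted at no locus was not measured either. The 3 genes summed to 5430 counts in replicate 1 and 8287 in replicate 2, or 1516 and 2317 CPM. Reads listed as fitting several loci, of all sequences in the library, numbered 2202818 and 1831161, or 32.3% and 31.2% of the mapped reads. These were 406 and 221 times the Mir199 counts, so the tables set no useful upper limit on miR-199a-5p or on the 3p arm. With this limit, Mir214 was 10.9-fold and 8.85-fold above the sum of the 3 Mir199 genes.

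Mir22 was 14.4-fold and 30.2-fold below Mir214 in the 2 libraries, a log2 ratio of 4.38 ± 0.75 (SD, n = 2). Its hairpin, on chromosome 11 (75463716 to 75463810, plus strand), lies within an exon in both annotated transcripts of Mir22hg and within an exon of 1 of 4 transcripts of the overlapping protein-coding gene Tlcd2. Neither arm was found in another hairpin, unlike those of the Mir199 genes. Of the 5 genes, Mir22 was the only one lower in replicate 2.

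Mir214 and the 3 Mir199 genes were higher in replicate 2, and Mir22 was higher in replicate 1. On the log2 scale, replicate 2 over replicate 1, Mir214 had a ratio of 0.31 (exact binomial 95% interval 0.29 to 0.32), Mir199a-2 of 0.32 (0.21 to 0.43) and Mir199b of 0.68 (0.62 to 0.73). Mir22 had a ratio of -0.76 (-0.83 to -0.69). Mir199a-1 had 1.15 (0.65 to 1.70) from 46 and 103 counts, below the 100 counts on average set for this comparison. The 250 genes that reach that mean count had a median ratio of -0.27, with quartiles of -0.58 and 0.12, and 83 of them (33.2%) were higher in replicate 2. Of the 4 genes here that reach it, 3 were higher. These 3 are not independent, since Mir214 and Mir199a-2 share a host RNA and Mir199a-2 and Mir199b share an arm. None of the 4 differed by more than 2-fold, against 10.8% of the 250 genes. Relative to the median, Mir214 lay 0.58 above, Mir199a-2 0.59, Mir199b 0.95, and Mir22 had -0.49. Scaling by TMM factors, which shifts every ratio by 0.29, kept the direction of all 5 genes. With TMM, 129 of the 250 genes (51.6%) were higher in replicate 2, and those over 2-fold were 6 higher and 14 lower, against 3 higher and 24 lower in CPM.

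**Figure D5:**
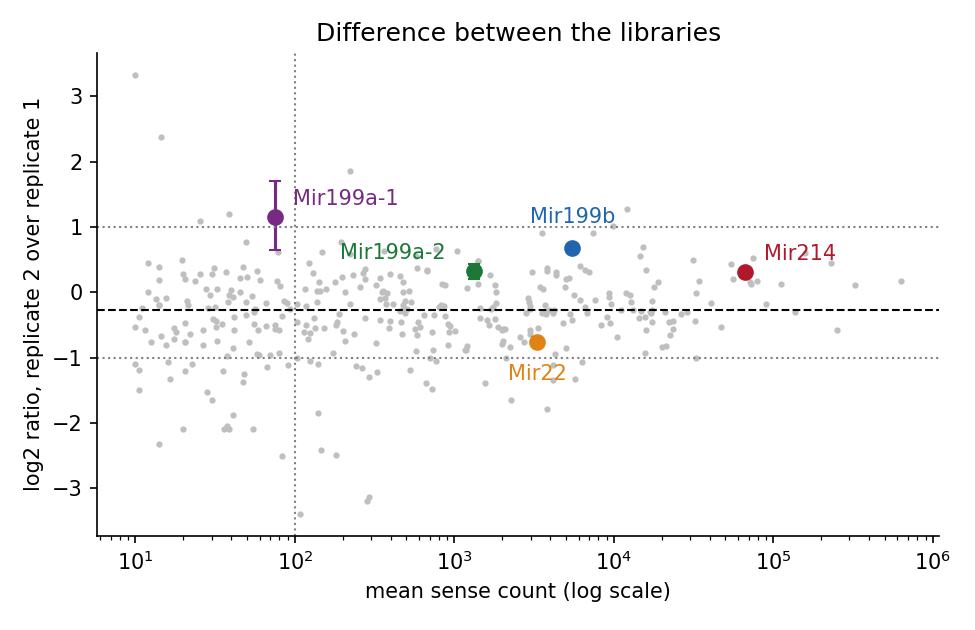
Log2 ratio of replicate 2 over replicate 1 (y axis) against the mean sense count (x axis, log), for genes with a mean of 10 counts or more; the dashed line is the median, dotted lines mark 2-fold and 100 counts, and bars are exact binomial 95% intervals. Mir214, Mir199a-2, Mir199b and Mir199a-1 lie above 0, and Mir22 lies at -0.76.

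Marker lists of cell types are given beside these differences. The limb-position list of Hox-cluster miRNA genes, 6 of 6 detected and led by Mir10b, summed to 187171 and 170106 CPM, a log2 ratio of -0.14. Its genes did not share a direction. Mir10a had -0.31, Mir10b -0.58 and Mir615 -0.58, while Mir196a-1 had 0.15, Mir196a-2 0.30 and Mir196b 0.46. The mesenchyme list, 4 of 4 detected, summed to 7772 and 10669 CPM, a log2 ratio of 0.46. Most of that difference was in Mir140, with 1978 and 4767 CPM. The log2 ratio of Mir140 was 1.27, against 0.08 for Mir143, 0.29 for Mir145a and -0.32 for Mir455, so the markers did not share a direction. The epithelial list, 7 of 7 detected and led by Mir205, summed to 12334 and 10775 CPM (log2 ratio -0.19). Of its genes, Mir203 alone was higher in replicate 2 in CPM, with 0.67. Mir126a of endothelium had 26707 and 23683 CPM (-0.17). The erythroid list, 3 of 3 detected and led by Mir451a of red blood cells, summed to 480 and 269 CPM, a log2 ratio of -0.84. Its genes differed in size: Mir451a had -0.88 and Mir486 -0.93, while Mir144 had -0.26, near the median of -0.27 over the 250 genes. Mir486 and Mir144 had fewer than 100 counts on average. The leukocyte list, 2 of 3 measured genes detected and led by Mir155, had 731 and 611 CPM (-0.26). The limb-position, epithelial, endothelial and leukocyte ratios turned direction with TMM scaling, to 0.15, 0.09, 0.12 and 0.03, so no direction is given for them. The muscle list summed to 27.9 and 105 CPM, with Mir206 as its 1 detected gene of 5 and Mir1a-1, Mir133a-1 and Mir133a-2 at 0. The neural list had 81.2 and 124 CPM, with Mir137 as its 1 detected gene of 6 and the 3 Mir124a genes at 0. Genes such as Mir133a and Mir124a carry the same mature arm at several loci, so a 0 in these tables does not show that the miRNA is absent. Mir122 of liver had 24.8 and 5.59 CPM. The part of these cell types in the differences of Mir214, the Mir199 genes and Mir22 was not tested.

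Nearly all reads at the 5 genes came from their own strand, and 4 of the genes lie opposite to dynamin genes. Over all 1973 genes, antisense counts were 84234 and 61736, beside 3581672 and 3576482 sense counts. Antisense counts were thus few over all genes together as well. At Mir214, Mir199a-2, Mir199b and Mir22 their share was lower still, while Mir199a-1 had too few reads to tell. How the antisense counts were spread over single genes was not examined. Whether those genes differ from a typical gene was therefore not tested. Antisense counts at Mir214 were 1 in replicate 1, beside 59424 sense counts, and 0 in replicate 2. At Mir199a-1, Mir199a-2, Mir199b and Mir22 there was no antisense count in either library. A count of 0 allows an antisense share of up to 0.256% and 0.205% at Mir199a-2, and up to 6.52% and 2.91% at Mir199a-1, where few reads were counted. Mir3120, annotated opposite to Mir214, was not analysed here. The 1 other measured gene within 10 kb of any of the 5, apart from Mir199a-2 and Mir214 themselves, was Gm23363, 116 bases from Mir199b on the same strand, with 4 and 5 counts.

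Mir214 lay above most of the other mesenchymal genes compared. Of 7 such genes, all detected, 1 lay above Mir214 by its mean: Mir99a, at 20709 ± 5259 CPM (SD, n = 2). It was above Mir214 in each library, with 16990 against 16591 CPM in replicate 1 and 24427 against 20513 CPM in replicate 2, although the means differed by less than either SD. Mir100, of the same family as Mir99a, had 8787 ± 2099, and Mir143, of smooth muscle and fibroblasts, had 4993 ± 187 CPM. Mir21a had 3552 ± 270 CPM, and Mir140, a cartilage gene, had 3372 ± 1972 CPM. These 5 lay above the means of Mir199b and Mir22. Mir455, also of cartilage, had 780 ± 121 CPM and Mir145a, the cluster neighbour of Mir143, had 74.5 ± 10.5 CPM. The median of the 7 was 3552 CPM, against 916 CPM for the 5 genes described here. The Mir199 genes among the 5 share arms, and the layout of their counts is that of uniquely placed reads. The medians and the place of Mir199b therefore do not compare the abundance of miRNAs. The other mesenchymal genes were higher in replicate 2 in 5 of 7 cases, with a median log2 ratio of 0.29, against 33.2% of the 250 genes and a median of -0.27. With TMM scaling 6 of 7 were higher, with a median of 0.58, against 51.6% and a median of 0.02. The 7 were listed with earlier results of these data known. They hold cluster neighbours and genes of 1 family, so they are not independent. A part of cell types in these differences was not tested.

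Genes with the nearest levels in both libraries were found by the distance in log2 CPM over the 2 libraries, which reflects level alone. Mir214 was nearest to Mir26b (18733 and 20927 CPM, distance 0.18), Mir130a (0.21) and Mir99a (0.25). Mir199b was nearest to Mir203, an epithelial gene, with 4244 and 6747 counts beside its own 4211 and 6722 (distance 0.012), then to Mir484 and Mir181a-1. Mir199a-2 was nearest to Mir350 (0.16), Mir195a (0.17) and Mir16-2 (0.19). Mir22 was nearest to Mir467d (0.18), Mir421 (0.19) and Mir540 (0.20). With 2 libraries, such nearness is no sign of a shared pattern.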

How the data were processed

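Small RNA of whole limb was sequenced in 2 libraries. Each library has 1 deposited table of raw counts per miRNA gene, not normalized, in 3 columns (both strands, sense, antisense), with 4 further rows that name no gene. Per the deposited readme texts, the authors used mm10 and GENCODE M4. The aligner and the counting program were not given in the sources used here. The layout, in which reads that fit several loci have a row of their own, is that of counting uniquely placed reads. The 4 rows stayed out of the totals: 3581672 sense counts in replicate 1 and 3576482 in replicate 2, of 10064833 and 7218612 reads, with 32.3% and 18.6% unmapped.

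Symbols and positions came from GENCODE M21 (GRCm38), in which 1894 of 1973 identifiers matched and 79 did not. Mature and hairpin sequences came from RefSeq. CPM used the totals above, and log2 values a prior count of 1. Intervals are 95% exact binomial and, like the limits for a count of 0 (3 counts), cover counting error only, since reads are not independent molecules. Scalings by edgeR 4.0.16 (TMM) and DESeq2 1.42.0 were alternatives. R 4.3.3, Python 3.11.15, numpy 2.4.6, pandas 2.3.3, scipy 1.17.1 and matplotlib 3.10.9 were used. The ratio and scaling steps were tested on simulated data. The libraries are biological replicates per the labels, from separate pools. Genes named are the 5 members, the 3 nearest in level to each member with at least 100 counts on average, the listed mesenchymal genes, the strand partner Mir3120, the most abundant marker of each cell type, and genes that share a seed or lie within 10 kb. The markers named at 0, the erythroid markers Mir486 and Mir144, and the 3 genes outside the Mir199 family named for having no arm of their own were chosen after their values were seen. So were the limb-position genes other than Mir10b, and Mir203 as an epithelial marker. The members and lists were chosen with earlier results of these data known.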

Additional observations from a re-analysis of the deposited data

How the results depend on the processing

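The 7 ratios between the genes and their joint share of the counts moved by no more than the SD of the libraries with both strands counted, and the ratios also with a prior count of 5. The levels kept within that SD with TMM and DESeq2 scaling and with both strands, and changed with the total used as denominator. Per 1000000 reads of the whole library, unmapped ones included, they were 8034 for Mir214, 675 for Mir199b, 373 for Mir22, 160 for Mir199a-2 and 9.42 for Mir199a-1. Over the total without the 10 most abundant genes they were 44728, 3705, 2171, 888 and 50.9 in the same order. Genes over 2-fold between the libraries numbered 27, and 54 with genes from 10 counts on average. Neighbouring pairs over 10-fold apart numbered 459, with 1306 within 50 kb (72.5%), 115 with both genes detected and 183 where each gene has a mature arm at no other hairpin (44.0%), a set without the Mir214 pair. With TMM and DESeq2 scaling, the ratios between the libraries of Mir214, Mir199a-2, Mir199b and Mir22 moved by more than counting error without changing direction. Without one of the 2 libraries, each value is that of the other library, which the text gives. In replicates 1 and 2, Mir199b ranked at 87 and 67, Mir22 at 89 and 104, Mir199a-2 at 138 and 126, and Mir199a-1 at 292 and 236. No paired analysis was possible because the labels give 1 group. Counting error was widest for Mir199a-1, with 46 and 103 counts, and both its arms also occur at other hairpins.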

Other observations

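Of the measured genes, 916 had a mature entry in the RefSeq table used, which is not complete. Of these, 868 had an arm found at no other annotated hairpin, and 311 of them (35.8%) passed the minimum of 10 counts in each library. In 48 genes every listed arm also occurred at another hairpin, and 6 of them (12.5%) were detected. This split was made after the data were seen and has no test. Mir199b and Mir199a-2 had the highest levels of those 6, at 1528 and 368 CPM, followed by Mir3074-1 at 141, Mir219a-2 at 23.0, Mir199a-1 at 20.8 and Mirlet7a-1 at 16.1 CPM. Mir199b stands in this set because its 3p arm alone is listed, although its 5p stretch was found in no other hairpin.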
